A study of Arabidopsis thaliana with 9 samples.

Results

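The jasmonate pathway was examined through 7 probe sets of the Affymetrix array, out of 22746 probe sets for plant transcripts. The 7 were chosen by name, with earlier results of these data known. They are 3 synthesis enzymes (LOX2, AT3G45140, AOS, AT5G42650, and OPR3, AT2G06050) and 2 repressors (JAZ1, AT1G19180, and JAZ10, AT5G13220). The other 2 are response genes (VSP2, AT5G24770, and PDF1.2, AT5G44420). In that order, their probe sets are ID.252618_at, ID.249208_at, ID.265530_at, ID.256017_at, ID.250292_at, ID.245928_s_at and ID.249052_at. The leading ID and dot were added here and are not part of the deposited names. All arrays came from whole Arabidopsis thaliana seedlings of ecotype Columbia-0, collected at 8 days of age, and the labels name no mutant allele or transgene. The 3 groups of 3 arrays were seedlings kept beside an open dish of 100 uM sodium nitroprusside (SNP), a nitric oxide (NO) donor, seedlings with 1 mM cPTIO, an NO scavenger, added to their own dish, and untreated seedlings, also listed as SDW. Both treatments lasted 5 days in sealed dishes, and the labels do not say whether untreated dishes were sealed. They describe 1 sealed dish per agent holding 3 dishes of seedlings, so replicates may share a single exposure, and p-values then measure only the spread among these arrays.

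Jasmonates are lipid hormones made from linolenic acid of chloroplast membranes. A lipoxygenase such as LOX2 oxygenates the fatty acid, allene oxide synthase (AOS) converts the product, and in the peroxisome OPR3 reduces the ring of OPDA before beta-oxidation shortens the chain. The active form, jasmonoyl-isoleucine, brings JAZ repressors to the receptor COI1 for destruction, which frees MYC transcription factors. In Arabidopsis the MYC branch is known for wound and insect responses, with VSP2, an acid phosphatase of vegetative tissue, as a usual marker, and the ERF branch, which also needs ethylene, for defence against necrotrophic fungi, with the plant defensin PDF1.2 as its marker. JAZ and synthesis genes are themselves induced by the hormone.

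Values are log2 expression values of the authors, 1 per probe set and array, and every difference below is a difference of these values. A call is a limma p-value, adjusted by Benjamini-Hochberg over all 22746 probe sets, under 0.05. Array medians lay between 4.47 and 4.60 and lower quartiles between 3.11 and 3.20. No detection calls were used, so a level near or below those medians is not shown to lie above background and its changes are of uncertain size. Among replicates, the SD of the differences between 2 arrays ran from 0.228 (SNP replicates 1 and 2) to 0.579 (cPTIO replicates 1 and 3). Within cPTIO it was 0.513 for replicates 2 and 3 and 0.313 for replicates 1 and 2, so replicate 3 stood apart. The BioC spike-in, a bacterial transcript added at hybridisation, averaged 8.53 ± 0.09 in SNP, 8.36 ± 0.51 in cPTIO and 6.32 ± 0.18 in untreated arrays (SD, n = 3 each), and all treated arrays lay above all untreated ones. The other hybridisation spike-ins BioB, BioD and cre differed by 0.35, 0.21 and 0.13 between treated and untreated arrays, with overlapping values. In BioB, BioC, BioD and cre, cPTIO replicate 3 was the lowest treated array. Among further control probe sets, ubiquitin was 0.34 higher in treated arrays, again with all treated above all untreated ones. The dap, thr, phe and lys controls were 1.00, 0.51, 0.42 and 0.23 higher in treated arrays, with overlapping values. The part of these control differences in the results was not tested.

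Markers of green shoot and of root were read beside these genes, because the tissue was the whole seedling. RCA, the activase of the carbon-fixing enzyme Rubisco and the 1 of 6 green shoot markers with a named probe set, stood at 12.90 ± 0.11 in SNP, 13.16 ± 0.03 in cPTIO and 13.08 ± 0.07 in untreated arrays. PYK10, a root beta-glucosidase, stood at 12.25 ± 0.13, 12.01 ± 0.15 and 12.10 ± 0.09 in the same groups, and neither marker was called in any comparison. EXPA7, an expansin of root hairs and the other of 2 named among 6 root markers, was lower in SNP, at 5.12 ± 0.40 against 6.10 ± 0.07 in untreated arrays, a difference of -0.98 (SE 0.18, limma adjusted p = 0.0192). EXPA7 was no longer called when any 1 of the untreated arrays was left out, with limma adjusted p-values from 0.0571 to 0.0634. Its mean in cPTIO was 5.61 ± 0.10, which was not called against either other group, except against untreated arrays when SNP replicate 3 (limma adjusted p = 0.0283) or both SNP and cPTIO replicates 3 (0.031) were left out. Fewer cells of a type and less RNA per cell cannot be told apart in such samples, and none of the 6 seed markers had a named probe set.

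SNP against untreated seedlings asked whether the NO donor moved the pathway. VSP2 and LOX2 rose, and no member fell. Those 2 of 7 calls compare with 2.57% of all probe sets called higher in SNP and 3.62% called lower. The mean of every member was higher in SNP than in untreated seedlings, with a median difference of 0.86, against 50.4% of all probe sets and a median of 0.0016. All SNP arrays lay above all untreated arrays in 5 of the 7, against 14.0% of all probe sets. Members and further gene lists were chosen with earlier results of these data known. Such shares, here and below, are therefore descriptive and no independent support. The number of members called was 0 without SNP replicate 2, 1 without SNP replicate 1 or untreated replicate 2, and 5 without cPTIO replicate 3. Calls over all probe sets moved the same way, from 1409 with all arrays. They were 500 without SNP replicate 2, 671 without SNP replicate 1, 516 without untreated replicate 2 and 2542 without cPTIO replicate 3.

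**Figure D1:**
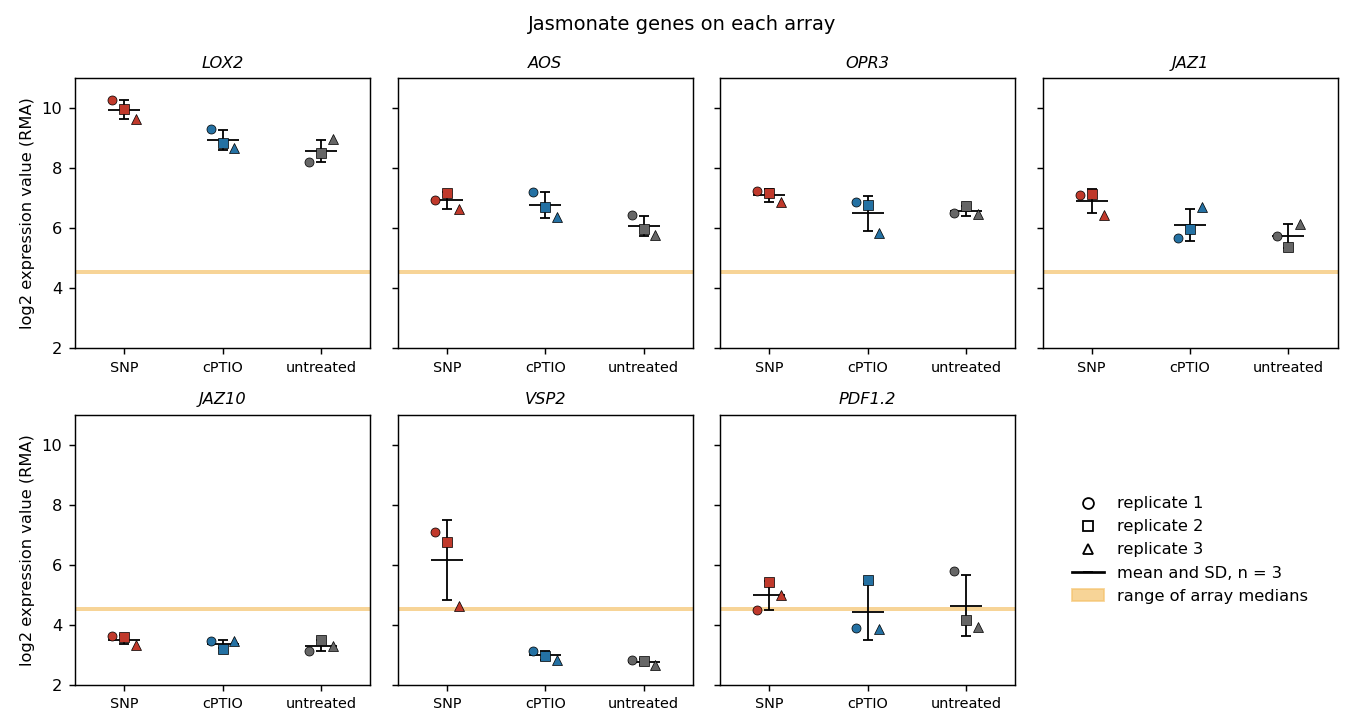
Log2 expression value (vertical axis) of the 7 jasmonate genes on the 9 arrays, with the SNP, cPTIO and untreated groups from left to right. Symbols mark replicates 1 to 3, bars the mean and SD of 3 arrays and the band the range of array medians. VSP2 lies above the array medians only on the SNP arrays, where replicate 3 is lowest and close to them, and PDF1.2 has overlapping groups.

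LOX2, the chloroplast lipoxygenase at the entry of the pathway, gave 10.27, 9.98 and 9.64 in SNP arrays, 9.32, 8.84 and 8.68 in cPTIO arrays and 8.23, 8.51 and 8.97 in untreated arrays. The SNP arrays lay above all others, while the cPTIO and untreated ranges overlapped. LOX2 was 1.39 higher in SNP than in untreated seedlings, or 2.62-fold (SE 0.25, limma adjusted p = 0.0167). Leaving out SNP replicate 1, SNP replicate 2 or untreated replicate 2 ended the call, with differences from 1.24 to 1.38 and limma adjusted p-values from 0.0598 to 0.0704.

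AOS, which makes the allene oxide from the LOX product, gave 6.95, 7.19 and 6.63 in SNP arrays, 7.22, 6.70 and 6.38 in cPTIO arrays and 6.44, 5.99 and 5.78 in untreated arrays. The SNP arrays were all above the untreated ones and overlapped with cPTIO. Its SNP minus untreated difference of 0.86 (95% interval 0.28 to 1.43) was not called, at a limma adjusted p of 0.0884. It was called in 6 of 19 alternative analyses, among them without cPTIO replicate 3 (limma adjusted p = 0.0447) and with array weights (0.0111).

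OPR3, the reductase of the peroxisomal step, gave 7.24, 7.18 and 6.86 in SNP arrays, 6.88, 6.77 and 5.83 in cPTIO arrays and 6.50, 6.75 and 6.46 in untreated arrays. Here the SNP arrays again lay above the untreated ones, and cPTIO replicate 3 was the lowest of all 9. The SNP minus untreated difference was 0.52 (95% interval -0.07 to 1.12, limma adjusted p = 0.302). Without cPTIO replicate 3, which widened the pooled spread of this gene, the same difference was called (limma adjusted p = 0.0372).

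Of 20 further genes of jasmonate synthesis and transport in the list, 4 had a named probe set, and 1 was called higher in SNP than in untreated seedlings and 0 lower, against 2.57% and 3.62% of all probe sets. AIM1, a multifunctional protein of peroxisomal beta-oxidation, was at 8.98, 8.81 and 8.75 in SNP arrays, 8.16, 8.27 and 8.38 in cPTIO arrays and 8.38, 8.53 and 8.41 in untreated arrays. It was 0.40 higher in SNP than in untreated seedlings (SE 0.10, limma adjusted p = 0.0474), a call kept in 8 of 19 alternatives and in 2 of the 9 that left out 1 array, those without cPTIO replicate 1 or cPTIO replicate 3. In the other 7 the limma adjusted p ran up to 0.144. OPCL1, a CoA ligase that activates OPDA-derived acids for beta-oxidation, differed by 0.42 (95% interval -0.11 to 0.95). The lipase gene DGL and the methyltransferase gene JMT, which makes methyl jasmonate, had means under the lower quartiles of the arrays in all groups.

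JAZ1, a repressor of MYC factors that the hormone itself induces, gave 7.12, 7.15 and 6.44 in SNP arrays, 5.67, 5.98 and 6.71 in cPTIO arrays and 5.74, 5.36 and 6.13 in untreated arrays. All SNP arrays were above the untreated ones, and cPTIO replicate 3 fell inside the SNP range. The SNP minus untreated difference was 1.16 (95% interval 0.44 to 1.88) and narrowly missed the threshold (limma adjusted p = 0.0701). It was called in 7 of 19 alternatives, among them without cPTIO replicate 3 (limma adjusted p = 0.0238) and with each array centred on its median (0.0494).

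JAZ10, a repressor known for its splice forms that resist destruction, stood below the array median on all 9 arrays. Its values were 3.62, 3.58 and 3.34 in SNP arrays, 3.45, 3.19 and 3.45 in cPTIO arrays and 3.14, 3.48 and 3.29 in untreated arrays, so all groups overlapped. The SNP minus untreated difference was 0.21 (95% interval -0.08 to 0.50, limma adjusted p = 0.413), and with its error a difference of 0.52 would have been called. The receptor COI1 and the other listed JAZ genes had no named probe set. MYC3 and MYC4, transcription factors that JAZ proteins hold back, were the 2 of 13 listed factors with one. MYC3 was 0.26 higher in SNP (95% interval -0.16 to 0.68) and MYC4 0.54 higher (95% interval -0.29 to 1.37), and neither was called.

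Genes for jasmonate turnover were read next, from a list of 10. The 4 with a named probe set were the JOX genes, whose 2-oxoglutarate-dependent oxygenases hydroxylate jasmonic acid to an inactive form. JOX3 (AT3G55970, listed by RefSeq as JRG21) gave 5.55, 5.80 and 4.64 in SNP arrays, 3.25, 3.03 and 3.01 in cPTIO arrays and 2.86, 2.98 and 3.00 in untreated arrays. The SNP arrays stood apart from all others, which lay far below the array medians. JOX3 rose by 2.39 in SNP against untreated seedlings (SE 0.26, limma adjusted p = 0.00303), and this call held in all 18 alternatives that gave a value, with differences from 2.15 to 2.73.

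JOX4 (AT2G38240) gave 4.88, 4.62 and 4.65 in SNP arrays, 4.33, 4.33 and 4.19 in cPTIO arrays and 4.28, 4.11 and 3.98 in untreated arrays. JOX4 thus lay near the array medians in SNP and below them in the other groups. It was 0.59 higher in SNP than in untreated seedlings (SE 0.11, limma adjusted p = 0.0207). The call was lost without SNP replicate 1, SNP replicate 2, untreated replicate 2 or untreated replicate 3, with limma adjusted p-values from 0.0544 to 0.0796. JOX2 (AT5G05600) gave 6.91, 6.68 and 5.50 in SNP arrays, 5.89, 5.38 and 5.36 in cPTIO arrays and 5.38, 5.23 and 5.17 in untreated arrays. Its SNP minus untreated difference of 1.102 (95% interval 0.34 to 1.87) was not called (limma adjusted p = 0.0958), but was called at 1.53 without SNP replicate 3 (limma adjusted p = 0.00864). JOX1 (AT3G11180) stayed between 2.67 and 2.86 on all 9 arrays, below their lower quartiles.

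**Figure D2:**
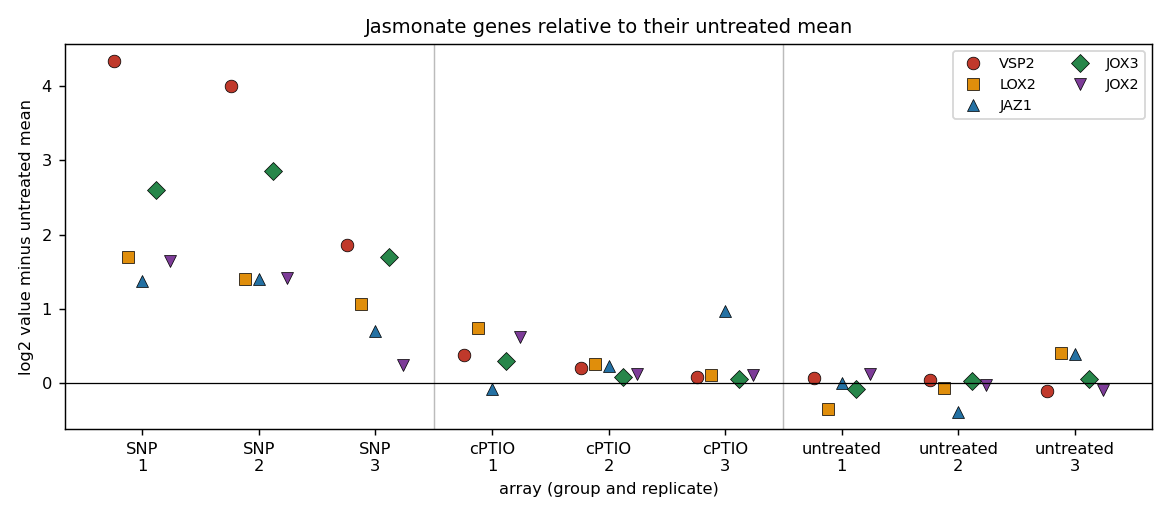
Log2 value minus the mean of the 3 untreated arrays (vertical axis) on each of the 9 arrays (horizontal axis) for VSP2, LOX2, JAZ1, JOX3 and JOX2. SNP replicate 3 is the lowest of the SNP arrays in all 5 genes, and JAZ1 is high on cPTIO replicate 3.

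VSP2, the marker of the MYC branch, gave 7.09, 6.76 and 4.62 in SNP arrays, 3.14, 2.97 and 2.84 in cPTIO arrays and 2.82, 2.80 and 2.65 in untreated arrays. Values of all 6 cPTIO and untreated arrays were below the lower quartile of their array, and no linear fold is given for that reason. SNP replicate 3, at 4.62, was close to its array median of 4.49. VSP2 rose by 3.40 in SNP against untreated seedlings (SE 0.54, limma adjusted p = 0.011), and the call held in 16 of 17 alternatives. Without SNP replicate 2 the difference was 3.10 and the call was lost (limma adjusted p = 0.0515). Within SNP the SD was 1.34, against 0.10 in untreated arrays, so the shared estimate of the spread was below that of the SNP group itself. The probe set carries the suffix s_at, which marks sets that can match several transcripts, and in the RefSeq table VSP1 is the next gene to VSP2. Signal of VSP1 and of VSP2 could therefore not be separated.

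THI2.1, a thionin and the 1 of 8 further MYC branch genes with a named probe set, stood at 3.19 ± 0.14 in SNP, 3.15 ± 0.13 in cPTIO and 3.16 ± 0.11 in untreated arrays (SD, n = 3 each). Its SNP minus untreated difference was 0.02 (95% interval -0.23 to 0.27), at a level near the lower quartiles.

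PDF1.2, the marker of the ERF branch, gave 4.50, 5.44 and 5.01 in SNP arrays, 3.91, 5.49 and 3.86 in cPTIO arrays and 5.81, 4.16 and 3.94 in untreated arrays. Single arrays of the cPTIO and untreated groups reached above the highest SNP array, and the groups overlapped in all comparisons. Its spread within groups, an SD of 0.84 pooled over the 3 groups, was larger than that of 99.2% of all probe sets. The SNP minus untreated difference was 0.35 (95% interval -0.997 to 1.69, limma adjusted p = 0.818), and only a difference of 2.41 or more would have been called. PDF1.2c is its next gene in the RefSeq table and had no named probe set.

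PDF1.2b, a near relative read by a probe set with the suffix x_at, gave 5.01, 6.04 and 5.70 in SNP arrays, 5.35, 6.82 and 4.85 in cPTIO arrays and 6.37, 5.81 and 5.49 in untreated arrays. Like PDF1.2 it was highest on replicate 2 within SNP and within cPTIO and on replicate 1 within the untreated group, and probes of the 2 sets may share targets. It was not called in any comparison (limma adjusted p from 0.808 to 0.955). PDF1.1, a defensin listed by RefSeq as LCR67, is described below for its difference between the agents.

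**Figure D3:**
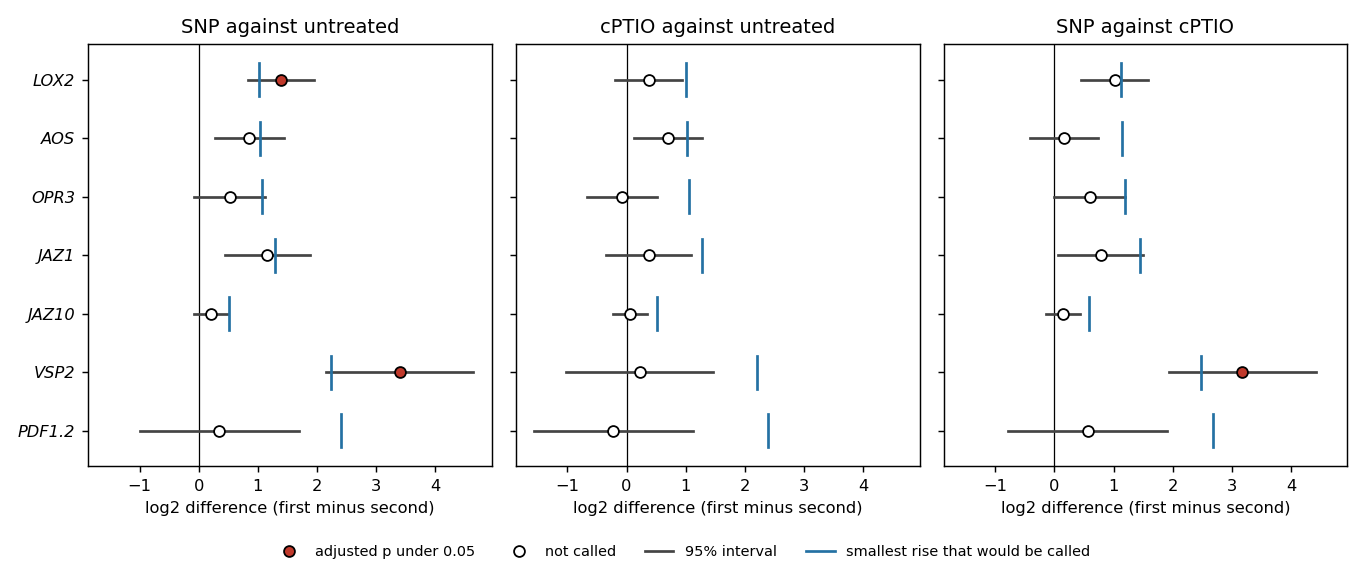
Log2 difference (horizontal axis, first group minus second) of each jasmonate gene in the 3 comparisons, with its 95% interval. Filled points had a limma adjusted p under 0.05, and the vertical tick is the smallest rise that would have been called with that gene's error. VSP2 passes its tick against both other groups, LOX2 against untreated seedlings, and no gene passes it in cPTIO against untreated seedlings.

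cPTIO against untreated seedlings asked whether the NO scavenger moved the same genes. By limma, 0 of the 7 members were called, against 6.59% of all probe sets, and 1 of 7 had an unadjusted p under 0.05, against 23.8% of all probe sets. That one was AOS, which was 0.70 higher in cPTIO (95% interval 0.12 to 1.27, limma adjusted p = 0.137), with 2 of 3 cPTIO arrays above all untreated ones. It was called with the replicate block over all 9 arrays (limma adjusted p = 0.0489), 1 of 19 alternatives. LOX2 differed by 0.37 (95% interval -0.19 to 0.94), JAZ1 by 0.38 (-0.35 to 1.098) and OPR3 by -0.07 (-0.67 to 0.52). JAZ10 differed by 0.06 (95% interval -0.23 to 0.35). For PDF1.2 the interval ran from -1.56 to 1.12 around -0.22.

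VSP2 was 0.22 higher in cPTIO than in untreated seedlings (95% interval -1.02 to 1.46, limma adjusted p = 0.844). That interval used the spread shared with SNP, where the SD was 1.34, against 0.15 in cPTIO and 0.10 in untreated arrays. With only the 2 groups compared, the SE was 0.11 instead of 0.54, and VSP2 was again not called (limma adjusted p = 0.330). The cPTIO arrays of VSP2 all lay above the untreated ones, as in 13.0% of all probe sets, at levels below the lower quartiles. None of the other 13 pathway genes with a named probe set was called either, against 6.59% of all probe sets. Of the 13, 2 had an unadjusted limma p under 0.05, against 23.8% of all probe sets. They were DGL, with a small difference (0.19), and PDF1.1. The median difference was 0.22 over the 7 members and 0.02 over all probe sets. Both treatments were compared with the same 3 untreated arrays.

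**Figure D4:**
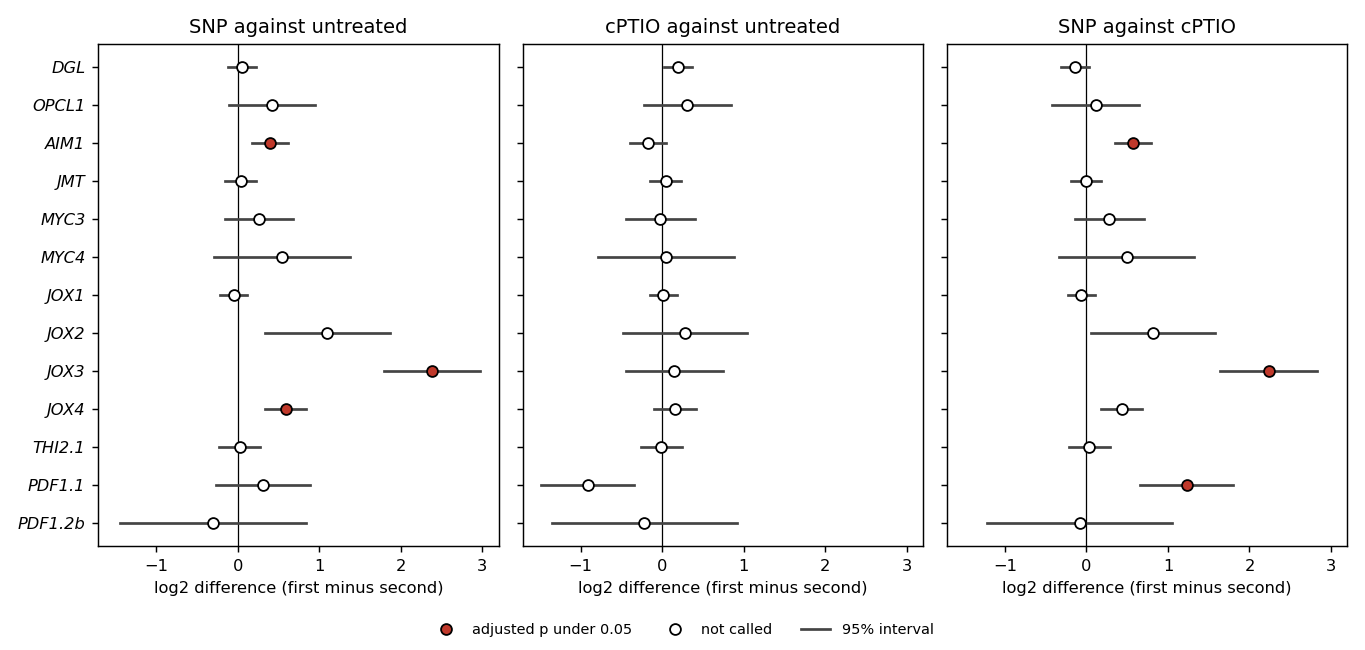
Log2 difference (horizontal axis, first group minus second) with its 95% interval for the 13 other pathway genes that had a named probe set, in the 3 comparisons. Filled points had a limma adjusted p under 0.05. JOX3, JOX4 and AIM1 are filled in SNP against untreated seedlings, JOX3, AIM1 and PDF1.1 in SNP against cPTIO, and none in cPTIO against untreated seedlings.

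SNP against cPTIO set the donor against the scavenger directly. VSP2 was 3.18 higher in SNP (SE 0.54, limma adjusted p = 0.0219), the 1 call among the 7 members, against 1.68% of all probe sets called higher in SNP. This call was lost without SNP replicate 1, SNP replicate 2, cPTIO replicate 1 or cPTIO replicate 2 (limma adjusted p from 0.0521 to 0.104). It was also lost with only these 2 groups in the fit (0.0914), and with same-numbered arrays of both also taken as pairs (0.0659), but not with the replicate block over all 9 arrays (0.0239). LOX2 was 1.02 higher in SNP (95% interval 0.46 to 1.58), or 2.03-fold, at a limma adjusted p of 0.0683. When the untreated arrays were dropped and same-numbered SNP and cPTIO arrays were also treated as pairs, LOX2 was called (SE 0.10, limma adjusted p = 0.036). Neither step alone gave a call, with limma adjusted p-values of 0.114 without the untreated arrays and 0.1004 with the replicate block over all 9 arrays. In all, LOX2 was called here in 4 of 19 alternatives, and in 0 of the 9 that left out 1 array. The other calls came with array weights (limma adjusted p = 0.0216), an intensity trend (0.0491) and only probe sets at or above the median mean level (0.0423).

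The remaining members were not called between the agents. JAZ1 was 0.78 higher in SNP (95% interval 0.06 to 1.51) and OPR3 0.60 higher (0.003 to 1.19). The OPR3 difference was 0.27 without cPTIO replicate 3, and OPR3 was then 0.26 higher in cPTIO than in untreated seedlings. Without SNP and cPTIO replicates 3, JAZ1 was called at 1.31 (limma adjusted p = 0.0256), its 1 call in 19 alternatives. AOS differed by 0.16 (95% interval -0.42 to 0.74), so its 2 treated groups were closer to each other than either was to the untreated group. JAZ10 differed by 0.15 (-0.14 to 0.44) and PDF1.2 by 0.57 (-0.78 to 1.91). All SNP arrays lay above all cPTIO arrays in LOX2 and VSP2, 2 of 7, as in 10.1% of all probe sets. The mean order SNP over cPTIO over untreated was seen in 5 of the 7, all but OPR3 and PDF1.2, and in 15.8% of all probe sets. OPR3 also took that order without cPTIO replicate 3.

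Among the other pathway genes, 3 of 13 were called higher in SNP than in cPTIO and 0 lower, against 1.68% and 1.59% of all probe sets. JOX3 was 2.24 higher (SE 0.26, limma adjusted p = 0.00536) and kept the call in all 18 alternatives that gave a value. AIM1 was 0.57 higher (SE 0.10, limma adjusted p = 0.0204). Its call was lost without SNP replicate 1, SNP replicate 2 or cPTIO replicate 1 (limma adjusted p up to 0.0861). With only SNP and cPTIO arrays in the fit the call was lost without the replicate block (0.0713) and with it (0.117), whereas the block over all 9 arrays kept it (0.048).

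PDF1.1 gave 4.41, 4.48 and 4.90 in SNP arrays, 3.40, 3.36 and 3.34 in cPTIO arrays and 3.70, 4.77 and 4.38 in untreated arrays. The cPTIO arrays were the lowest of the 9, below the array medians, and the SNP and untreated ranges overlapped. The SNP minus cPTIO difference was 1.23 (SE 0.25, limma adjusted p = 0.0397). It was no longer called without any 1 of the SNP or cPTIO arrays or untreated replicate 3, with limma adjusted p-values from 0.0515 to 0.129. Against untreated seedlings PDF1.1 was 0.91 lower in cPTIO (95% interval -1.49 to -0.34, limma adjusted p = 0.0691). That difference was called in 2 of 18 alternatives. It was -1.21 without untreated replicate 1 (limma adjusted p = 0.0238) and -1.06 with array weights (0.0336).

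Within the SNP group, replicate 3 was the lowest array in 6 of the 7 members, all but PDF1.2, as it was in 33.8% of all probe sets. The gap was widest in VSP2, at 4.62 against 6.76 and 7.09. Without that array VSP2 was 4.17 higher in SNP than in untreated seedlings (limma adjusted p = 6.42e-05) and 3.95 higher than in cPTIO (9.57e-05).

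Probe sets of 1 named gene outside the lists were ranked by their likeness to each member, as the root mean square difference of profiles centred on their own mean over the 9 arrays. For VSP2, whose own profile departed from its mean by 1.68, the nearest was AT1G52000, at 0.35. It averaged 5.59 ± 1.303 in SNP, 3.07 ± 0.05 in cPTIO and 2.89 ± 0.07 in untreated arrays. Next came AT3G28220, at 0.464, with 7.55 ± 0.53 in SNP, 4.02 ± 0.34 in cPTIO and 3.90 ± 0.20 in untreated arrays, and AT4G14090, at 0.596. For LOX2 (0.651 from its own mean) the nearest were AT5G65750, AT3G08030 and AT1G78060, at 0.226, 0.255 and 0.256. For JAZ1 (0.605) they were AT3G43610, PUB19 and AT5G14450, at 0.237, 0.262 and 0.264.

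AOS (0.471 from its own mean) lay nearest to AT4G16140, AT1G49840 and AT3G20820, at 0.136, 0.175 and 0.194. OPR3 (0.399) lay nearest to AT1G55210, at 0.102, with 8.80 ± 0.26 in SNP, 8.20 ± 0.55 in cPTIO and 8.27 ± 0.10 in untreated arrays, and then to the carboxypeptidase-like gene scpl46 and AT5G55070, at 0.111 and 0.112. JAZ10 moved by 0.156 in all, and distances of 0.0778 to 0.0849 to its nearest profiles say little. PDF1.2 had no close profile: the nearest, of the B3-domain gene NGA1, differed by 0.407 against its own 0.727.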

How the data were processed

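The deposited values are log2 expression values of 9 arrays. RMA and limma appear in the submitters' processing notes, whose versions are not given in the sources used here. Because RMA makes the distributions of the arrays alike, it takes out most of a shift common to all transcripts. Of 22810 probe sets, 64 AFFX control sets were set aside. Group was the single term of a linear model over the 9 arrays in limma 3.58.1 under R 4.3.3 (two-sided, Benjamini-Hochberg over 22746 probe sets, called under 0.05). The code was first run on simulated data with independent noise on each array. That setting lacks correlated replicates and spreads that differ between groups, so it cannot show how the model handles them. No filter was applied. Precision is limited by having 3 arrays per group.

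PDF1.2 was named by GEO's platform annotation and the other 6 members by the rule that chose them. That annotation, updated through RefSeq identifiers (TAIR10.1), gave 1 gene for 13513 probe sets, several for 503, and 8730 were not listed. It matched 13 of 70 further pathway genes. The 7 members are named throughout. Other pathway genes were to be named where called, the rest were named after their values were seen, and 3 profiles most like each member are given. Members and lists were chosen with earlier results of these data known.

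Replicate numbers were checked by correlating deviations from group means of same-numbered arrays: 0.257, 0.305 and 0.417 between SNP and cPTIO, all above 0.1. The labels name no such pairs, and the main model had no pairing term, so its SNP against cPTIO calls ignore this correlation. Fits with pairs were run as alternatives. With only these 2 groups and pairs, VSP2 lost its call (limma adjusted p = 0.0659) and LOX2 gained one (0.036). Against untreated arrays the correlations ran from -0.0174 to 0.127, and the main model likewise assumed no pairing. Sequences were not used here. Plots were made in matplotlib 3.10.9 under Python 3.11.15.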

Additional observations from a re-analysis of the deposited data

Results flagged for a closer look

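The BioC spike-in lay outside the tested probe sets, and all 6 treated arrays exceeded all 3 untreated arrays in it, with a treated minus untreated difference of 2.12 on the log2 scale over its 4 probe sets. The other hybridisation spike-ins differed by 0.35 (BioB), 0.21 (BioD) and 0.13 (cre), with overlapping values. The ubiquitin control sets were 0.34 higher in treated arrays, also without overlap. The labels give no batch. The part of these control differences in those of LOX2, VSP2, JOX3, JOX4 and AIM1 against untreated seedlings was not tested.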

How the results depend on the processing

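Among 390 recomputed differences of the 7 members, 359 stayed on the same side of 0.05, 21 gained a call and 10 lost one, and 0 turned a called direction. With 1 array left out, members called ran from 0 to 5 in SNP against untreated, from 0 to 1 in SNP against cPTIO and stayed at 0 in cPTIO against untreated, while all probe sets called by limma ran from 500 to 2542, from 161 to 1313 and from 122 to 2114, and those differing among the 3 groups from 744 to 3545. With array weights these totals were 3560, 1652, 2260 and 4389, with 4 members in SNP against untreated and 2 in SNP against cPTIO. Without SNP and cPTIO arrays numbered 3 they were 2256, 1392, 2330 and 3602, with 5 and 2 members. With only the 2 groups compared they were 2440, 267 and 280, with 4 and 0 members. With the replicate block in fits of 2 groups, 282 probe sets were called in SNP against cPTIO and 0 in cPTIO against untreated, where 4510 had an unadjusted p under 0.05. With the replicate block over all arrays, AOS was called in cPTIO against untreated, the 1 member there (limma adjusted p = 0.0489). Without suffixes s_at and x_at, which drops VSP2, 1 and 0 members were called, and with an intensity trend 2 in SNP against cPTIO. The causes were not tested. The low levels of JAZ10, of VSP2, JOX3 and JOX4 outside SNP, and of PDF1.1 in cPTIO limit what their differences show.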
